A study of Mus musculus with 168 samples.

Results

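The GABA and glycine signaling genes described here are 27 named genes of fast and slow synaptic inhibition, taken by symbol from a table of 39410 gene rows, and all 27 had a row. They comprise 11 subunits of the ionotropic GABA-A receptor, both subunits of the metabotropic GABA-B receptor, 5 glycine receptor subunits, 2 organisers of the inhibitory postsynapse, 2 chloride transporters and 5 genes that make, package or take up the transmitters. Further receptor subunits and partners exist and are not analysed here. The study measured RNA by Smart-seq2, a full-length low-input RNA-seq method, in neurons cut out by laser capture microdissection, with about 150 cells in a tube. The 6 populations were taken from mice on postnatal days 2, 5 and 10: ocular motor neurons (oculomotor and trochlear nuclei), facial, vagus, hypoglossal and lumbar spinal motor neurons, and neurons of the red nucleus, a midbrain nucleus that projects to the spinal cord. The mice belonged to the delta7 line, a model of spinal muscular atrophy (SMA). Control littermates were Smn+/+;SMN2+/+;SMN∆7+/+ and SMA mice were Smn-/-;SMN2+/+;SMN∆7+/+, so both genotypes carried the human SMN2 and SMN∆7 transgenes and differed in mouse Smn. The controls are therefore not wild-type mice.

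GABA and glycine open chloride-permeable channels, so their effect on a neuron depends on its chloride gradient. Slc12a2 (NKCC1) brings chloride in and Slc12a5 (KCC2) takes it out, and a gain of Slc12a5 over Slc12a2 during development is a textbook step towards inhibition. A second textbook step in spinal cord and brainstem is the exchange of the fetal glycine receptor subunit alpha 2 (Glra2) for the adult subunit alpha 1 (Glra1), which forms channels with the beta subunit (Glrb) that gephyrin (Gphn) anchors at the synapse. Motor neurons use acetylcholine and receive GABA and glycine from interneurons, so genes for making those transmitters are usually taken as marks of interneurons.

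The set held 168 libraries from 34 mice (15 control, 19 SMA), which gave 160 mouse samples (72 control, 88 SMA) in 36 groups of 3 to 7 mice. Each library held between 0.342 and 16.29 M (mega) reads as estimated from the smallest steps in the values, with a median of 5.893 M reads. The shallowest was the red nucleus sample of control mouse 252 on day 10, and the next held 2.586 M reads. Smn1, the gene removed in SMA mice, was at 4.321 to 63.278 RPKM in every control sample, and at 0 in 70 of the 88 SMA samples, where it reached at most 4.24 RPKM. Cholinergic markers (Chat, Slc5a7, Isl1) summed to 47.76 to 407.6 RPKM in the control motor populations, lowest in the vagus, and to at most 7.026 RPKM in the red nucleus. Red nucleus markers (Pou4f1, Slc17a6) summed to at least 245 RPKM in every sample of that nucleus and to at most 49.38 RPKM in other control samples, though 1 SMA ocular sample of day 10 reached 176.9 RPKM. Hoxc10, a lumbar gene, was at 62.93 to 113.1 RPKM in control lumbar samples and at most 0.1903 RPKM elsewhere. Samples of control mice 240 and 244 stood apart on day 2: the hypothalamic peptide genes Hcrt, Pmch, Avp and Oxt summed to a median of 424.9 RPKM in their 10 samples (0 to 837.4), against 2.259 RPKM (0 to 11.99) in the 14 other day 2 control samples. Calls on the change of members with age that were lost without these mice are given with and without them. Most calls between populations that were lost in this way are only counted. Results of other pathway genes and of the Glra1 to Glra2 ratio are given with them only. In samples of many cells, fewer cells of a type and less RNA per cell cannot be told apart.

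The 4 members shown here, whose RNA moved with age or marked a population, and whose upstream sequence RefSeq gives, are represented by the 250 bases upstream of their start (build GRCm38.p6), written 5′ to 3′ on the gene's strand. Glra2 and Glra3 code for alpha subunits of the immature glycine receptor and of a less common form, Glrb for the shared beta subunit, and Gabra6 for a GABA-A subunit best known from cerebellar granule cells. Capitals mark a TATA box (TATAAA) or a GC box (GGGCGG), searched on both strands, so a match on the other strand reads TTTATA or CCGCCC. The windows lie at chrX:165327394-165327643 (Glra2, minus strand), chr8:55940168-55940417 (Glra3, plus strand), chr3:80913661-80913910 (Glrb, minus strand) and chr11:42321073-42321322 (Gabra6, minus strand).
Glra2: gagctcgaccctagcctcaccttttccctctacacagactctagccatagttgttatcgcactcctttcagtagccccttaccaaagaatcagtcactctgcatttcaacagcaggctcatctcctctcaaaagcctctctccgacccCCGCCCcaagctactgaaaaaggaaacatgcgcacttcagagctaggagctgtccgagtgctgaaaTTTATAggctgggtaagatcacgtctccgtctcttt
Glra3: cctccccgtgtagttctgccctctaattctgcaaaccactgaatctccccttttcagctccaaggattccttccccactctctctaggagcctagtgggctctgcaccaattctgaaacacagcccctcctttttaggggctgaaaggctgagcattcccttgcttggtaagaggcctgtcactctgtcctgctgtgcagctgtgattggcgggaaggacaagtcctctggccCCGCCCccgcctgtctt
Glrb: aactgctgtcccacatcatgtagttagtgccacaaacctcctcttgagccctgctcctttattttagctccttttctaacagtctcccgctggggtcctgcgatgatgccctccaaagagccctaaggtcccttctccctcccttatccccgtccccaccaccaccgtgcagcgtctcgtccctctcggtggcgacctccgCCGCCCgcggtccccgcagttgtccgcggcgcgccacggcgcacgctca
Gabra6: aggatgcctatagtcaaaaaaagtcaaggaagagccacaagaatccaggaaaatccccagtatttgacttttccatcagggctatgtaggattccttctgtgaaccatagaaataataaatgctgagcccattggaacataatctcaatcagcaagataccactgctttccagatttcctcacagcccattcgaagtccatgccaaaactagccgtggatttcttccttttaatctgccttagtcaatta
The windows differ in base composition. GC content was 62.4% with 20 CpG dinucleotides for Glrb, 56.0% with 4 for Glra3, 50.4% with 8 for Glra2 and 40.8% with 2 for Gabra6, against medians of 52.4% and 6 over all 32851 windows of that length. The Glra2 window held 1 TATA box and 1 GC box, those of Glra3 and Glrb 1 GC box each, and that of Gabra6 neither. A TATA box stood in 12.368% of all windows and in 5 of the 32 windows of the 24 members that matched by symbol, and a GC box in 32.742% and in 15. The cyclic AMP response element TGACGTCA (1.546% of all windows) stood in 0 of the 32, the E-box CACGTG (6.021%) in 1, of Slc12a5, and the NRF1 motif CGCATGCG (1.549%) in 1, of Gabrb1. These matches describe letters and not bound sites.

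All values are RPKM (reads per kilobase of transcript, scaled to library size), a unit that allows levels of different genes to be set side by side. In controls the most abundant member in each population but the vagus and red nucleus was Glrb, with means over all days from 84.1 ± 22.3 RPKM in the vagus (SD, n = 11) to 145 ± 40.8 in lumbar neurons (SD, n = 13). Gabbr1, the ligand-binding GABA-B subunit, led in the vagus (134.5 ± 28.4, SD, n = 11) and the red nucleus (118 ± 32.7, SD, n = 11). Population means of Slc12a5 were 47.9 to 96.9 RPKM, those of Gphn 20.1 to 61.9 RPKM and those of Nlgn2, the adhesion protein of inhibitory synapses, 32.1 to 49.2 RPKM. At the low end, Glra4 was at 0 in all but 2 control samples and 1 SMA sample and never passed the filter on low values. Gabra6 passed it in facial neurons alone. The remaining 25 members passed it in at least 1 population.

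**Figure D1:**
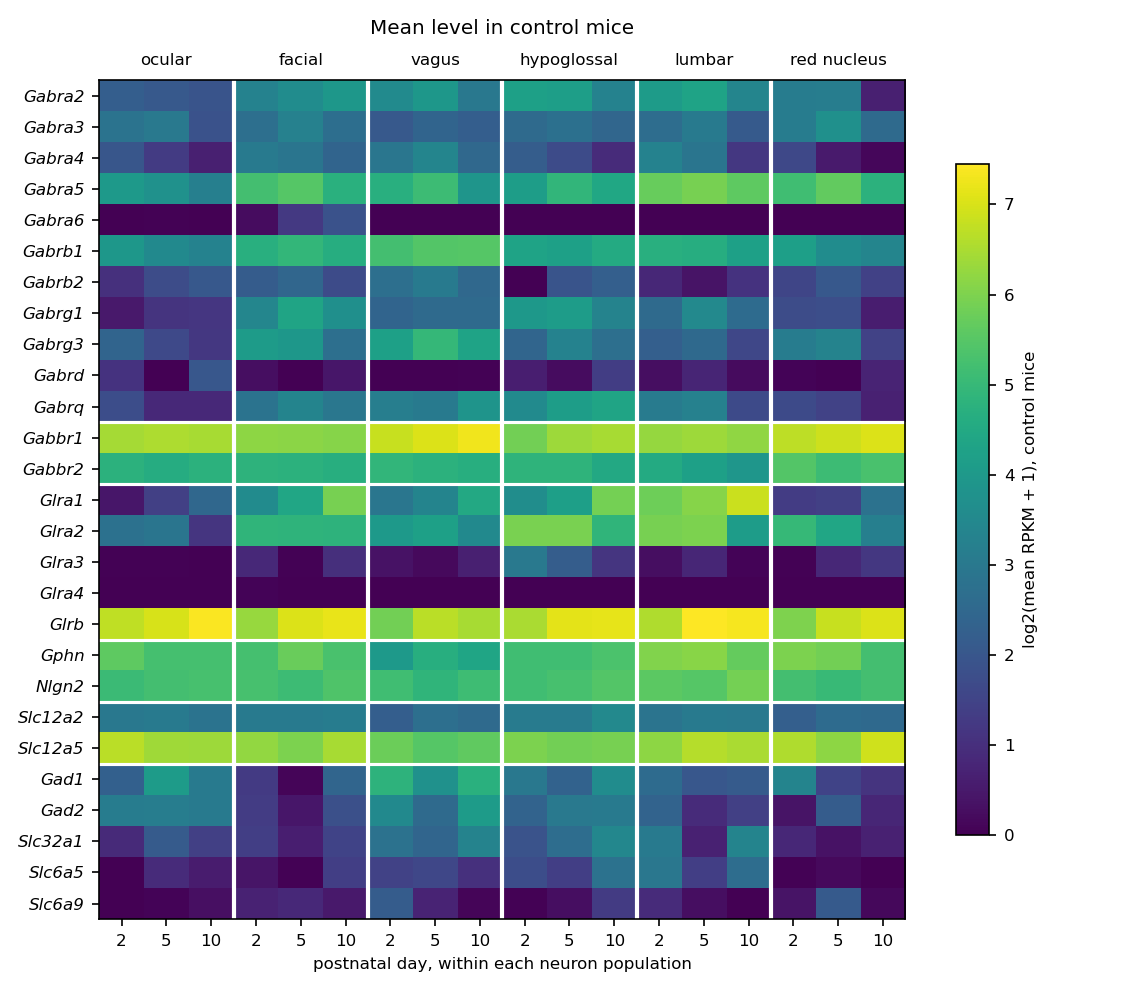
Log2(mean RPKM + 1) of the 27 members in control mice, by population and day, with members as rows and colour as the level; each cell is the mean of 3 to 5 mice. Glrb, Gabbr1 and Slc12a5 are high in every column, Gabra6 appears in facial columns and Glra4 is at or near 0 throughout.

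The main comparison asked how these genes changed in control neurons between day 2 and day 10, in each population. Glycine receptor genes carried most of it. Glra1 passed the test as higher in all 5 motor populations and Glrb in every population but the vagus. Glra2 passed as lower in 4 populations. Members that passed the test (limma on log2(RPKM + 1), Benjamini-Hochberg adjusted p under 0.05 over all genes tested in the population) numbered 22 of 144 tests, 11 higher and 11 lower on day 10, over 10 members. In ocular neurons 2 of 23 members tested rose and 1 fell, beside 4.38% and 3.64% of all genes tested. Facial neurons had 3 higher and 1 lower of 25, beside 2.6% and 2.76%. The higher ones include Gabra6, which passed the filter there only through samples of days 5 and 10. The vagus had 1 higher and 0 lower of 24, beside 0.581% and 0.437%. Hypoglossal neurons had 2 higher and 3 lower of 24, beside 2.43% and 2.68%. Lumbar neurons had 2 higher and 3 lower of 24, beside 4.76% and 7.25%. The red nucleus had 1 higher and 3 lower of 24, beside 5.72% and 5.42%. The median log2 change of the members tested lay between −0.40 (lumbar) and 0.33 (hypoglossal), and that of all genes between −0.10 (lumbar) and 0.06 (ocular). Oligodendrocyte markers differed with age as well: the median sum of 5 of them (Mbp, Mag, Mog, Mobp, Cnp) lay between 17.13 and 57.97 RPKM on day 2 and between 214.6 and 721 RPKM on day 10 in each control population but the vagus, where it was 80.63 and then 52.98 RPKM. Mobp was at 0 in all control red nucleus samples of day 2, and no other marker was at 0 throughout a control group of either day. Their part in the changes was not tested.

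Glra1 (chr11:55514238-55608198, minus strand, GRCm38) codes for the adult glycine receptor alpha subunit. In control facial neurons it was at 5.47, 8.91, 11.7, 13.4 and 16.2 RPKM on day 2, at 8.001, 20.6, 25.4 and 26.6 on day 5 and at 49.0, 50.1, 52.2 and 87.0 on day 10. Hypoglossal neurons went from 6.89, 8.91, 14.3 and 16.1 RPKM on day 2 to 41.8, 46.9, 65.2 and 81.3 on day 10, and lumbar neurons from 34.7, 48.2, 51.1 and 86.1 to 93.1, 106, 118 and 142. Every day 10 mouse stood above every day 2 mouse in these 3 populations. Ocular neurons held little of it, at 0, 0.106, 0.322 and 1.09 RPKM on day 2 and 2.79, 2.91, 3.07 and 9.66 on day 10. In the vagus it was at 3.52, 7.48 and 8.94 RPKM on day 2 and at 13.1, 15, 26.9 and 30.8 on day 10. Both populations had no overlap between the days either. The log2 rises were 2.36 ± 0.36 (SE) in facial, 2.27 ± 0.35 in hypoglossal, 1.93 ± 0.43 in ocular, 1.55 ± 0.37 in vagus and 1.10 ± 0.21 in lumbar neurons, with limma adjusted p of 0.000106, 0.000184, 0.00494, 0.0363 and 0.000374. The facial, hypoglossal, ocular and lumbar calls were kept without any single mouse and without mice 240 and 244 together. The vagus call was lost without mouse 26, 244, 253 or 254 (log2 rises 1.21 to 1.66, limma adjusted p 0.0673 to 0.174) and without mice 240 and 244 (1.32, 0.335), where 1 control mouse was left on day 2 and was assumed to vary like the other groups. Red nucleus neurons held 0, 0.0756, 0.446 and 5.49 RPKM on day 2 and 0, 1.24, 10.7 and 12.03 on day 10, groups that overlap, and passed no test. The rises were not shown to differ between the 6 populations (limma F test, adjusted p = 0.761).

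Glra2 (chrX:165129017-165327393, minus strand), the fetal alpha subunit, moved the other way. Lumbar neurons kept it on day 5 and had lost most of it by day 10: it was at 49.3, 54.6, 57.3 and 78.3 RPKM on day 2, at 51.7, 54.4, 59.3, 70.8 and 70.8 on day 5, and at 9.01, 16.7, 19.5 and 19.9 on day 10. In the red nucleus it was at 22.01, 28.9, 33.1 and 40.0 RPKM on day 2 and at 4.64, 8.23, 9.85 and 10.5 on day 10. Hypoglossal neurons went from 36.2, 55.0, 62.5 and 90.8 RPKM to 23.6, 27.4, 28.9 and 33.3. No day 10 mouse reached the lowest day 2 mouse in these populations. The log2 change was −1.85 ± 0.23 (SE) in lumbar, −1.80 ± 0.29 in red nucleus, −1.68 ± 0.50 in ocular and −1.02 ± 0.25 in hypoglossal neurons, with limma adjusted p of 1.42e-06, 0.000251, 0.0372 and 0.0119. The lumbar and red nucleus calls were kept without any single mouse and without mice 240 and 244. The hypoglossal call was lost without mouse 28 (−0.81, limma adjusted p 0.0608), and the ocular one without mouse 14, 26, 28, 244, 247, 252 or 254 (−1.82 to −1.35, 0.0520 to 0.145) and without mice 240 and 244 (−1.72, 0.0643). In facial neurons it was at 20.7, 21.6, 22.3, 33.9 and 42.5 RPKM on day 2 and 22.4, 23.3, 30.4 and 31.8 on day 10, fully overlapping, a log2 change of −0.02 ± 0.30 (SE; limma adjusted p = 0.993). The change in Glra2 differed between populations (limma F test, adjusted p = 0.00472), a call that was lost without mice 240 and 244 (0.110).

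**Figure D2:**
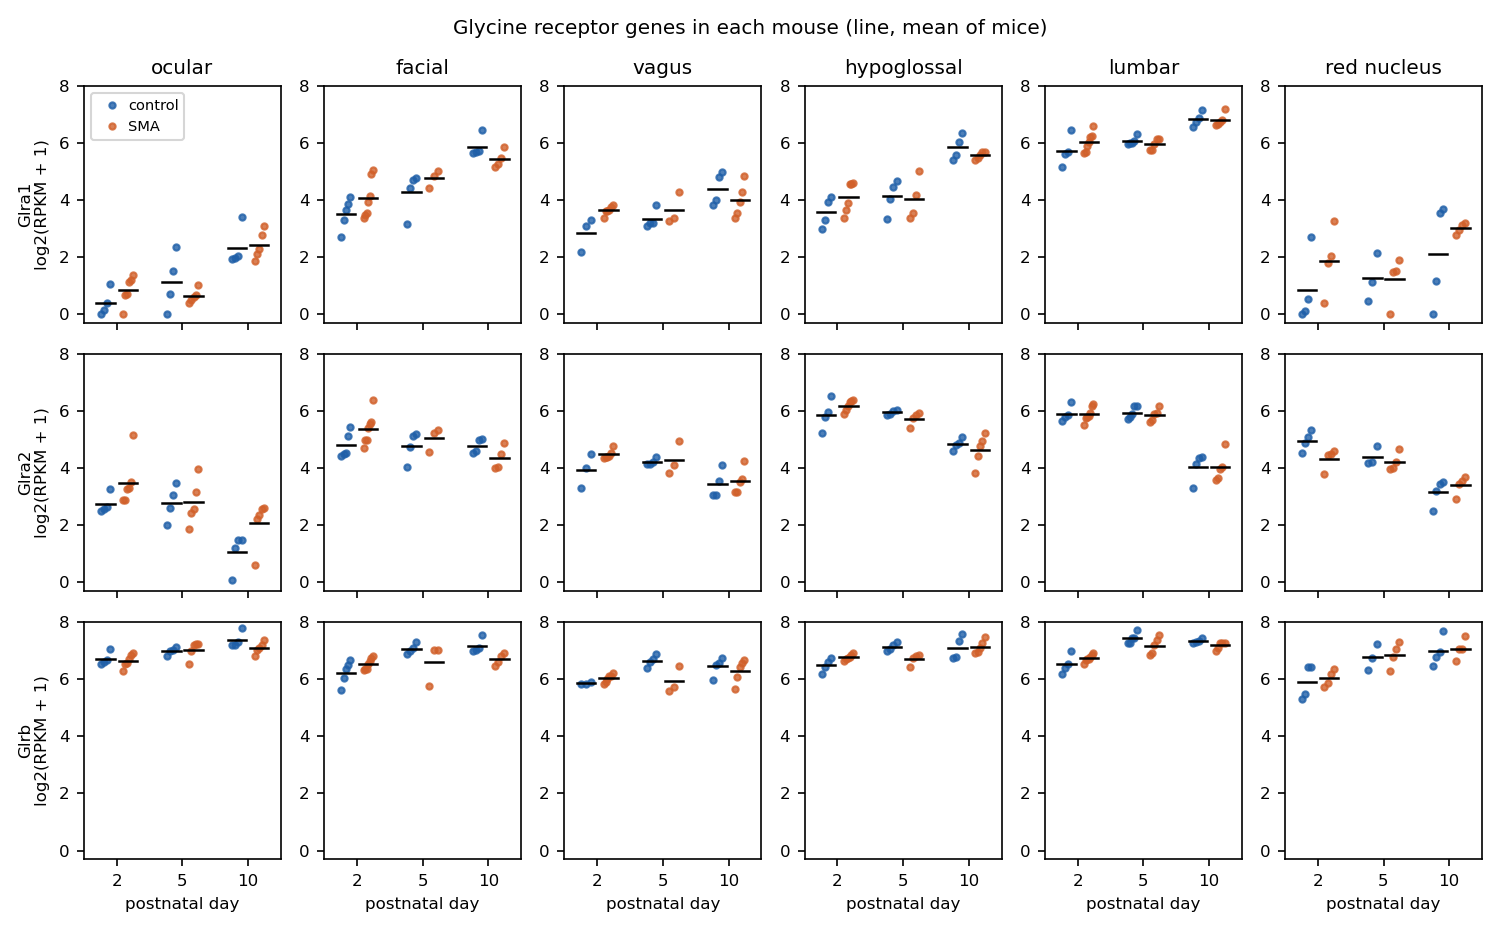
RPKM of Glra1, Glra2 and Glrb in each mouse by population and day, on a log2(RPKM + 1) axis, with control and SMA mice as separate colours and a bar at each group's mean. In controls Glra1 points climb from day 2 to day 10 in the motor populations, and Glra2 points drop in lumbar, hypoglossal, ocular and red nucleus neurons. Glra2 points of SMA mice also drop in facial and vagus neurons, and the colours overlap.

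The balance of both subunits within a mouse was taken as the log2 ratio of Glra1 to Glra2, each with 1 added. On day 2 its mean was below 0 in all 6 control populations, from −4.14 ± 1.59 (SD, n = 4) in the red nucleus to −0.17 ± 0.35 (SD, n = 4) in lumbar neurons. On day 10 it was above 0 in the 5 motor populations, from 0.95 ± 1.04 (SD, n = 4) in the vagus to 2.78 ± 0.73 (SD, n = 4) in lumbar neurons, and still −1.06 ± 1.58 (SD, n = 4) in the red nucleus. It grew by 3.61 in ocular, 3.29 in hypoglossal, 2.96 in lumbar, 2.37 in facial, 2.02 in vagus and 3.07 in red nucleus neurons. The days did not overlap in the motor populations and overlapped in the red nucleus. Two-sided exact permutation tests gave p = 0.0286 in ocular, hypoglossal and lumbar neurons, p = 0.0159 in facial and p = 0.0571 in vagus neurons, each the smallest that the number of mice allows, and p = 0.0857 in the red nucleus. Adjusted over the 12 ratio tests run, these exact p-values were 0.0857 for the first 4, 0.137 for the vagus and 0.171 for the red nucleus, so none passed 0.05. These ratios rest on the same values as the tests of Glra1 and Glra2 above.

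**Figure D3:**
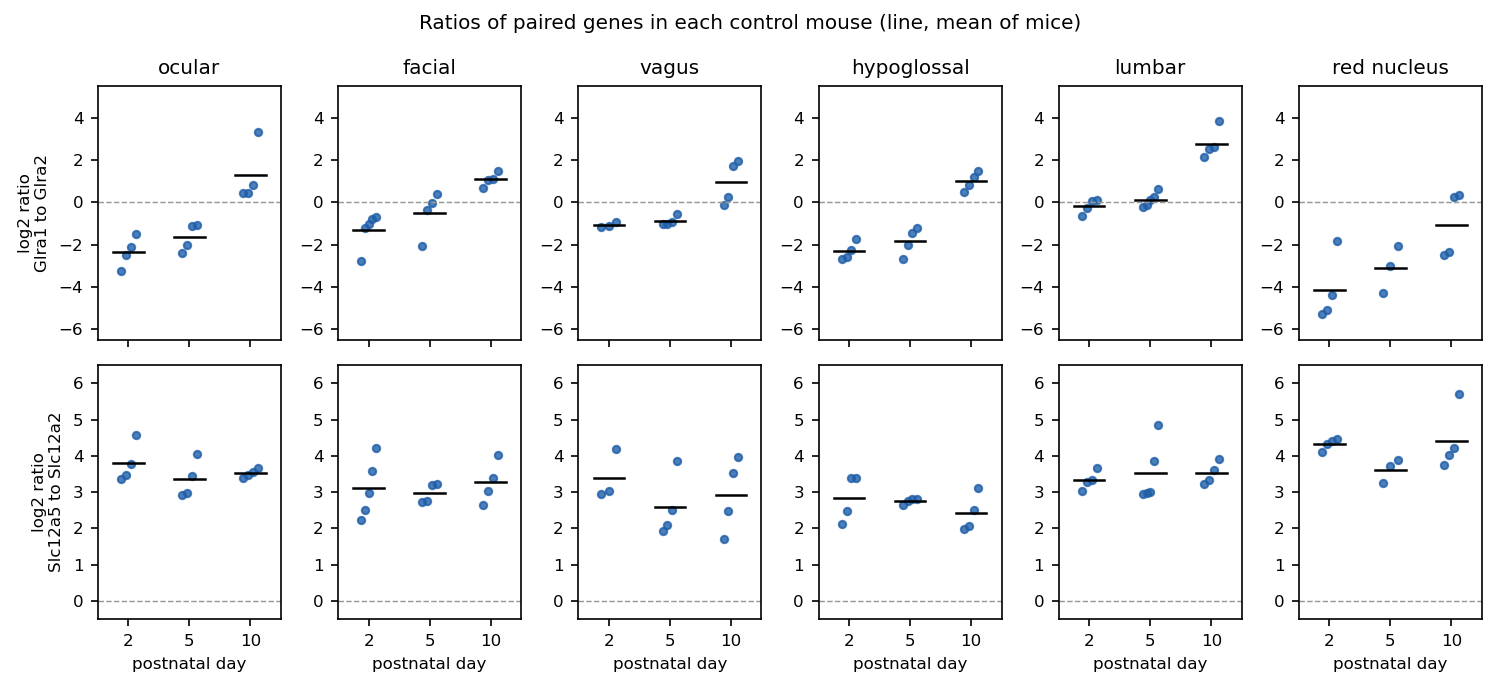
Log2 ratio of Glra1 to Glra2 and of Slc12a5 to Slc12a2 in each control mouse, by population and day, with 1 added to each RPKM; points are mice and bars are means, and the line at 0 is equal level. The mean glycine receptor ratio crosses 0 between day 2 and day 10 in motor populations, and the transporter ratio sits above 0 at every age.

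Glrb (chr3:80843599-80913660, minus strand) was close to its day 10 level by day 5 in lumbar, facial, hypoglossal and vagus neurons. In lumbar neurons it was at 71.0, 82.5, 92.8 and 126 RPKM on day 2, at 153, 153, 175, 175 and 211 on day 5, and at 153, 156, 160 and 172 on day 10. Facial neurons went from 48.0, 65.2, 81.5, 88.8 and 101 RPKM on day 2 to 116, 125, 135 and 157 on day 5 and 127, 130, 136 and 186 on day 10. All day 5 and day 10 mice were above all day 2 mice in both. Hypoglossal neurons were at 125.9 to 158.4 RPKM on day 5 and 106.6 to 190.5 on day 10. Vagus neurons were at 82.85 to 116.5 RPKM on day 5 and 62.1 to 106 on day 10. Log2 rises from day 2 to day 10 were 1.06 ± 0.31 (SE) in red nucleus, 0.93 ± 0.23 in facial, 0.81 ± 0.15 in lumbar, 0.65 ± 0.18 in ocular and 0.63 ± 0.17 in hypoglossal neurons, with limma adjusted p of 0.0260, 0.0123, 0.000290, 0.0230 and 0.0313. The lumbar call was kept without any single mouse and without mice 240 and 244 (0.56, limma adjusted p 0.0412). The facial call was lost without mouse 247 (0.81, 0.0633), the red nucleus call without mouse 26, 28 or 247 (0.82 to 0.92, 0.0781 to 0.0914), the ocular call without mouse 28, 244 or 247 (0.51 to 0.61, 0.0537 to 0.108) and the hypoglossal call without mouse 240, 244, 247 or 252 (0.47 to 0.60, 0.0760 to 0.135). Without mice 240 and 244 together the facial (0.66, 0.124), ocular (0.59, 0.0705) and hypoglossal (0.45, 0.309) calls were lost as well. In the vagus Glrb was at 55.9, 56.0 and 59.0 RPKM on day 2 and at 62.1, 90.5, 94.2 and 106 on day 10, a log2 change of 0.59 ± 0.23 (SE; limma adjusted p = 0.260).

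Glra3 (chr8:55940460-56130070, plus strand), another alpha subunit, was found mainly in hypoglossal neurons in control mice. It was at 6.03, 6.29, 6.91 and 8.75 RPKM in control hypoglossal neurons on day 2, at 2.10, 3.78, 4.17 and 4.18 on day 5, and at 0.623, 1.10, 1.503 and 1.72 on day 10. Each age stood below the one before with no overlap. The log2 fall to day 10 was 1.86 ± 0.45 (SE; limma adjusted p = 0.0120), lost without mouse 254 (a change of −1.71, limma adjusted p 0.0508) and without mice 240 and 244 (−1.77, 0.103). Over all days its mean was 3.93 ± 2.62 RPKM in hypoglossal neurons (SD, n = 12) and at most 0.703 ± 0.926 elsewhere (red nucleus; SD, n = 11), with a single control sample elsewhere never above 2.98 RPKM. Its change with age in controls differed between populations (limma F test, adjusted p = 0.000911). In SMA mice the median of Glra3 was 2.51 RPKM in hypoglossal neurons, 1.45 in the red nucleus and at most 0.723 (lumbar) elsewhere. Single SMA samples reached 15.4 RPKM in hypoglossal, 7.87 in red nucleus and 4.99 in lumbar neurons.

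The steps of this change were tested as well, a comparison added after the values were seen. All 5 lumbar control libraries of day 5 were, per the labels, joined at mapping with reads of an earlier deposit. In any comparison with that group, age or genotype cannot be told apart from this joining. From day 2 to day 5, 2 of 144 tests passed, both in lumbar neurons: Glrb rose by 0.91 ± 0.14 (SE; limma adjusted p = 0.000615), lost without mice 240 and 244 (0.67, 0.0857), and Slc32a1 fell, as described below. From day 5 to day 10, 14 of 144 passed, 5 higher and 9 lower, over 9 members, 8 of them in lumbar neurons. The share of all genes called was 0.17% and then 1.58% in ocular, 0.0232% and 1.16% in facial, 0.0% and 0.467% in vagus, 0.0121% and 2.73% in hypoglossal, 1.51% and 9.66% in lumbar and 0.174% and 3.99% in red nucleus neurons. Glra2 changed by −1.90 ± 0.22 in lumbar and −1.09 ± 0.25 in hypoglossal neurons, Glra1 by 1.73 ± 0.35 in hypoglossal neurons and Gabra4 by −1.65 ± 0.29 in lumbar neurons between days 5 and 10 (SE; limma adjusted p 1.01e-06, 0.0124, 0.00620 and 0.000282), and these 4 calls were kept without any single mouse. The other 10 were lost without some mouse. In lumbar neurons these were Glra1 (0.76; mouse 253), Gabrq (−1.56; mouse 247), Slc32a1 (1.93; mouse 253), Gabra2 (−0.88; mice 30, 247 or 253), Gabra3 (−1.10; mice 29, 30, 247, 252 or 254) and Gphn (−0.43; mice 29, 34, 75, 247 or 252). Elsewhere they were Glra1 in facial neurons (1.60; mice 29, 34, 247, 252 or 253), Gabrd in ocular neurons (2.01; mice 29, 30, 71, 75, 247, 252, 253 or 254), and Gabra2 (−2.52; mice 30, 34, 199, 247, 252 or 254) and Glra2 (−1.22; mice 30, 34, 75, 252 or 253) in the red nucleus. Without those mice the values were 0.65 for lumbar Glra1, −1.27 for Gabrq, 1.18 for Slc32a1, −0.86 to −0.76 for Gabra2, −1.10 to −0.80 for Gabra3, −0.45 to −0.32 for Gphn, 1.23 to 1.68 for facial Glra1, 1.89 to 2.06 for Gabrd, and −2.66 to −2.30 for Gabra2 and −1.32 to −0.99 for Glra2 in the red nucleus.

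One population at a time was also set against the mean of the other 5 in controls, with the 3 days weighted equally. Of 156 such tests 75 passed, 41 higher and 34 lower, over 23 members. One of them, Gabra6 in facial neurons, entered only through the population where it is high, so its call was fixed by the filter. Ocular neurons had 3 members higher and 10 lower of 26, beside 7.77% and 9.95% of all genes. Facial neurons had 7 and 4, beside 5.84% and 3.42%. The vagus had 8 and 6, beside 15.5% and 12.2%. Hypoglossal neurons had 9 higher and 0 lower, beside 7.11% and 3.68%. Lumbar neurons had 9 and 3, beside 9.59% and 8.8%, and red nucleus neurons 5 and 11, beside 8.82% and 13.1%. Ocular and red nucleus neurons, which held the least Glra1, had more lower than higher calls.

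Glycine receptor genes separated the populations by wide margins. Glra1 was highest in lumbar neurons, at 77.9 ± 30.3 RPKM over all days (SD, n = 13), then 29.3 ± 24.3 in hypoglossal (SD, n = 12) and 28.8 ± 24.1 in facial neurons (SD, n = 13), which overlap widely. It was at 13.0 ± 8.53 RPKM in the vagus (SD, n = 11), 3.18 ± 4.38 in the red nucleus (SD, n = 11) and 2.22 ± 2.74 in ocular neurons (SD, n = 12). Against the other 5 populations the log2 difference was 3.15 ± 0.23 (SE) in lumbar, 1.17 ± 0.23 in facial and 1.12 ± 0.23 in hypoglossal neurons, and −2.75 ± 0.23 in ocular and −2.62 ± 0.24 in red nucleus neurons (limma adjusted p from 5.48e-18 to 0.000236). Glra2 was highest in hypoglossal (50.2 ± 20.2, SD, n = 12) and lumbar neurons (47.1 ± 23.0, SD, n = 13) and lowest in ocular neurons (4.51 ± 3.11, SD, n = 12). Its log2 difference was 1.5 ± 0.14 (SE) in hypoglossal, 1.18 ± 0.13 in lumbar and −2.54 ± 0.14 in ocular neurons (limma adjusted p from 5.58e-24 to 8.28e-11). In facial neurons it was 0.57 ± 0.13 higher and in the vagus 0.54 lower (limma adjusted p 0.00134 and 0.00206). Ocular neurons had little alpha subunit RNA beside a full level of Glrb, at 134 ± 34.3 RPKM (SD, n = 12), a log2 difference of 0.29 ± 0.10 (SE; limma adjusted p = 0.0340).

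**Figure D4:**
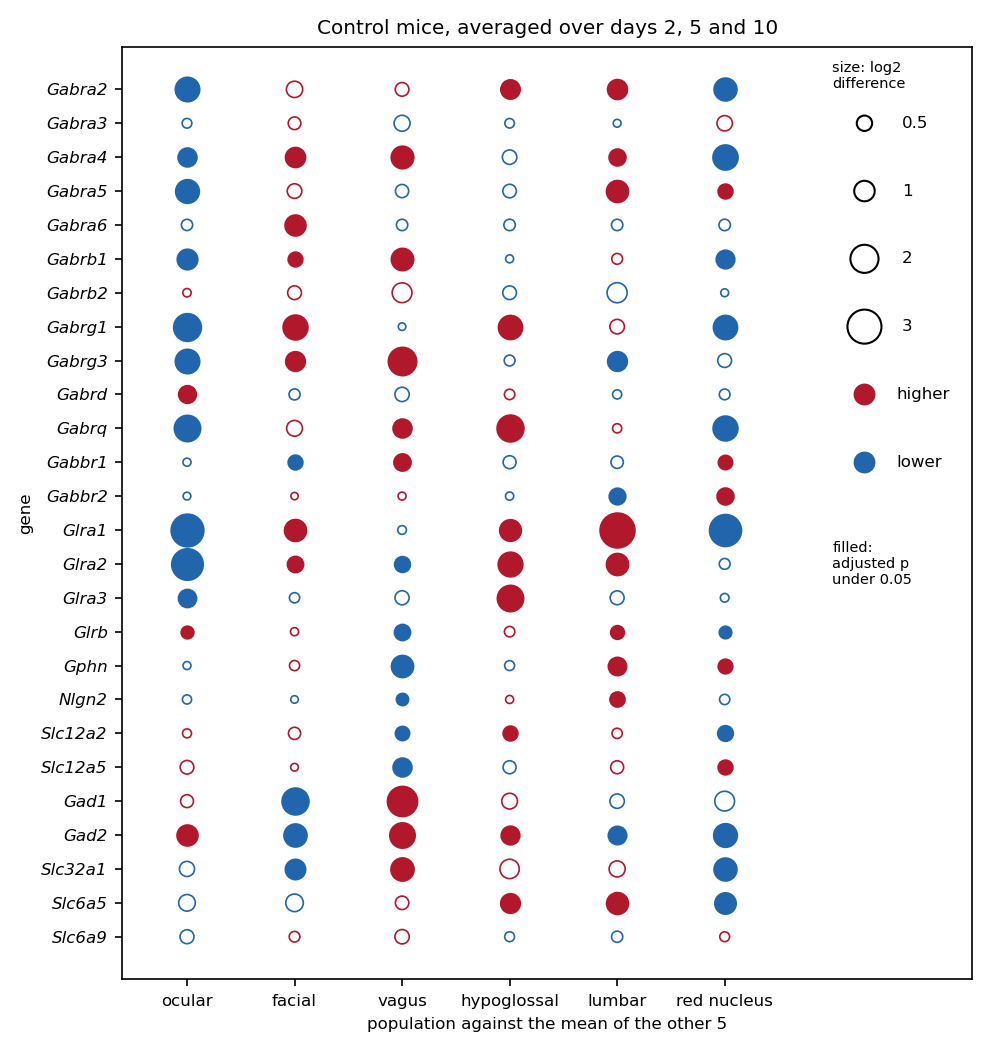
Log2 difference of each member between 1 control population and the mean of the other 5, averaged over days, with members as rows, populations as columns, circle area growing with the size of the difference, red for higher and blue for lower, and filled circles where limma's adjusted p is under 0.05. Lumbar Glra1 and hypoglossal Glra3 stand out as higher, and ocular Glra1 and Glra2 as lower.

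Among GABA-A subunits, Gabra5 (an alpha subunit of extrasynaptic receptors) was the most abundant alpha subunit of the 5 analysed, at 53.2 ± 11.4 RPKM in lumbar neurons (SD, n = 13) and 12.02 ± 4.72 in ocular neurons (SD, n = 12). Its log2 difference was 1.17 ± 0.15 (SE) in lumbar and −1.37 ± 0.15 in ocular neurons (limma adjusted p 5.65e-09 and 9.16e-11). Gabrb1, a beta subunit, was highest in the vagus at 41.1 ± 5.83 RPKM (SD, n = 11) and lowest in ocular neurons at 11.3 ± 4.79 (SD, n = 12), differences of 1.21 ± 0.13 and −0.998 ± 0.121 (SE; limma adjusted p 3.78e-12 and 1.04e-09). Gamma and theta subunits differed between populations as well. Gabrg1 was at 13.4 ± 6.21 RPKM in facial (SD, n = 13) and 13.3 ± 6.15 in hypoglossal neurons (SD, n = 12) and 0.958 ± 0.739 in ocular neurons (SD, n = 12). Gabrg3 was highest in the vagus at 22.7 ± 7.59 RPKM (SD, n = 11), a log2 difference of 2.03 ± 0.23 (SE; limma adjusted p = 6.53e-11). Gabrq, the theta subunit, was highest in hypoglossal neurons at 15.7 ± 5.58 RPKM (SD, n = 12), a difference of 1.81 ± 0.23 (SE; limma adjusted p = 3.42e-09). Gabra2, an alpha subunit common in young neurons, was at 14.6 ± 6.57 RPKM in hypoglossal (SD, n = 12) and 15.03 ± 5.96 in lumbar neurons (SD, n = 13) and at 3.24 ± 2.24 in ocular neurons (SD, n = 12). Gabra4 ran from 0.916 ± 1.83 RPKM in the red nucleus (SD, n = 11) to 6.97 ± 2.48 in the vagus (SD, n = 11). Population means of Gabra3 (3.77 to 7.94 RPKM) and Gabrb2 (0.710 to 5.87 RPKM) passed no test between populations. Gabrd, a subunit of extrasynaptic receptors, had its highest mean in ocular neurons at 1.42 ± 1.67 RPKM (SD, n = 12), a difference of 0.70 ± 0.18 (SE; limma adjusted p = 0.00313). It was uneven over days there, at 0, 0.203, 0.572 and 3.83 RPKM on day 2, at most 0.0299 on day 5 and 2.67 to 4.14 on day 10. Ocular neurons were lower for 7 of the 11 GABA-A members, namely Gabra2, Gabra4, Gabra5, Gabrb1, Gabrg1, Gabrg3 and Gabrq, by 0.82 to 1.93 on the log2 scale.

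Gabra6 (chr11:42306437-42321072, minus strand) was all but limited to facial neurons in controls. It was at 0, 0, 0, 0 and 0.965 RPKM in control facial neurons on day 2, at 0, 1.39, 1.57 and 2.46 on day 5, and at 1.58, 2.30, 3.11 and 3.72 on day 10. Day 10 mice all stood above day 2 mice. In the 5 other control populations no sample exceeded 0.0911 RPKM. The log2 rise was 1.65 ± 0.39 (SE; limma adjusted p = 0.0111), lost without mice 240 and 244 (1.52, 0.0677). No facial sample of day 2 reached 1 RPKM in either genotype, the highest SMA one being at 0.905. Gabra6 thus passed the filter on low values only through days 5 and 10. This favours a call of a rise, so the rise is given as a description. Since Gabra6 entered the tests over all populations only through its facial samples, its difference from the other populations, 1.04 on the log2 scale, is given as a description. Among SMA samples outside the facial nucleus it was above 0 in 4, the highest being hypoglossal samples of day 10, at 0.875 RPKM in mouse 196 and 1.44 in mouse 250. Gabra6 is a textbook gene of cerebellar granule cells, and the sum of 5 of their markers (Neurod1, Fat2, Cbln3, Zic1, Zic2) was 0.7259 to 4.097 RPKM in control facial neurons on day 2, with Fat2 at 0, and 0.08995 to 3.13 on day 10. In hypoglossal neurons of day 10 the sum was 2.152 to 8.155 RPKM in control mice, where Gabra6 was at 0 in every sample, and 3.991 to 22.54 RPKM in SMA mice. The part of granule cells in Gabra6 was not tested.

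Several GABA-A subunits fell with age. Gabra4 (chr5:71569749-71658308, minus strand) was at 6.73, 6.89, 9.29 and 12.7 RPKM in control lumbar neurons on day 2, at 4.37, 4.49, 5.73, 8.62 and 8.82 on day 5, and at 0.716, 0.927, 1.73 and 1.95 on day 10, a log2 change of −2.08 ± 0.31 (SE; limma adjusted p = 1.64e-05). Every day 10 mouse was below every day 2 and day 5 mouse. In hypoglossal neurons Gabra4 went from 2.05, 3.20, 3.47 and 5.73 RPKM to 0.232, 0.390, 0.695 and 2.30, a change of −1.33 ± 0.37 (SE; limma adjusted p = 0.0328). Gabrg3 in facial neurons was at 10.3, 13.2, 15.7, 18.2 and 22.2 RPKM on day 2 and at 3.78, 5.97, 6.01 and 6.37 on day 10, a change of −1.35 ± 0.32 (SE; limma adjusted p = 0.00998) with no overlap. Gabrq in lumbar neurons went from 3.48, 7.79, 8.37 and 10.4 RPKM to 0.560, 1.10, 2.89 and 4.25, which overlap in 1 mouse, a change of −1.49 ± 0.43 (SE; limma adjusted p = 0.0193). Gabra2 in the red nucleus was at 0, 4.15, 12.9 and 14.2 RPKM on day 2 and at 0, 0, 0.952 and 1.33 on day 10, overlapping at 0, a change of −1.98 ± 0.64 (SE; limma adjusted p = 0.0468). The lumbar Gabra4 call was kept without any single mouse and without mice 240 and 244. The hypoglossal Gabra4 call was lost without mouse 26, 28, 244, 247, 252 or 254 (−1.36 to −1.13, limma adjusted p 0.0624 to 0.125) and without mice 240 and 244 (−1.64, 0.0576). The Gabrq call was lost without mouse 28, 244, 247 or 254 (−1.42 to −1.20, 0.0532 to 0.101) and without mice 240 and 244 (−1.18, 0.238). The Gabrg3 call was lost without mice 240 and 244 alone (−1.18, 0.0732). The Gabra2 call was lost without any one of 19 mice (26, 28, 30, 31, 34, 61, 75, 76, 196, 199, 207, 209, 211, 244, 247, 249, 252, 254 and 258; −2.12 to −1.51, 0.0503 to 0.161) and without mice 240 and 244 (−1.51, 0.161). Gabra3, Gabra5, Gabrb1, Gabrb2, Gabrg1 and Gabrd passed no test between day 2 and day 10 in any population, with log2 changes from −0.996 (Gabrg1) to 1.58 (Gabrb2). Gabra4 and Gabrb1 lie head to head and share 46 exon bases on opposite strands, and since the strand of the counting is not stated, reads there cannot be assigned. The same limit holds for Glra1, Gabra5 and Gphn, where 5.84%, 4.98% and 3.92% of exon bases overlap a gene on the opposite strand.

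GABA-B receptors couple to G proteins and need both subunits. Gabbr1 was 0.66 ± 0.11 (SE) higher on the log2 scale in the vagus and 0.41 ± 0.11 higher in the red nucleus, and lower in facial neurons, at −0.45 ± 0.11 (limma adjusted p 4.16e-06, 0.00494 and 0.00224). Gabbr2 was highest in the red nucleus, at 38.6 ± 9.11 RPKM (SD, n = 11), and lowest in lumbar neurons, at 18.1 ± 4.55 (SD, n = 13), differences of 0.63 ± 0.11 and −0.61 ± 0.10 (SE; limma adjusted p 7.51e-06 and 6.52e-06). Neither passed the test of change from day 2 to day 10 in any population, with log2 changes of −0.08 to 0.60 for Gabbr1 and −0.62 to 0.05 for Gabbr2.

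Gephyrin, the scaffold under glycine and GABA-A receptors, was highest in lumbar neurons and lowest in the vagus. Gphn (chr12:78226379-78684772, plus strand) was at 61.9 ± 11.5 RPKM in lumbar (SD, n = 13) and 20.1 ± 6.31 RPKM in vagus neurons (SD, n = 11), log2 differences of 0.77 ± 0.11 and −1.19 ± 0.12 (SE; limma adjusted p 2.29e-07 and 1.80e-12). It fell with age in the red nucleus, from 55.7, 61.5, 61.7 and 69.7 RPKM on day 2 to 23.8, 34.7, 40.5 and 44.7 on day 10, with no overlap. That change was −0.81 ± 0.22 (SE; limma adjusted p = 0.0189), lost without mouse 252 (−0.63, 0.0814). Nlgn2 was 0.47 ± 0.09 (SE) higher in lumbar neurons (limma adjusted p = 3.31e-05) and passed no test of change with age, where its log2 changes were −0.08 to 0.32.

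No change with age was detected in either chloride transporter, and Slc12a5 stood far above Slc12a2 from day 2 on. Slc12a5 (chr2:164960802-164999731, plus strand) stood at means of 47.9 ± 26.4 RPKM (vagus; SD, n = 11) to 96.9 ± 34.3 RPKM (red nucleus; SD, n = 11), and Slc12a2 at 4.53 ± 2.06 (red nucleus; SD, n = 11) to 8.47 ± 2.33 (hypoglossal; SD, n = 12). Neither passed the test of change from day 2 to day 10 in any of the 6 populations: the log2 difference was −0.26 ± 0.28 (SE, ocular) to 0.33 ± 0.31 (red nucleus) for Slc12a5 and 0.01 ± 0.36 (ocular) to 0.43 ± 0.25 (hypoglossal) for Slc12a2, with limma adjusted p of 0.397 to 0.995. The mean log2 ratio of Slc12a5 to Slc12a2 on day 2 was already 2.85 (hypoglossal) to 4.33 (red nucleus). It moved by −0.46 (vagus) to 0.19 (lumbar) by day 10, every population overlapping between days, with exact permutation p of 0.286 to 0.971, or 0.490 to 0.971 adjusted over the 12 ratio tests. With 3 to 5 mice a day and a standard deviation of the ratio up to 1.03 in a group, small shifts were not detectable. Against the other populations Slc12a5 was lower in the vagus by a log2 difference of −0.83 ± 0.16 and higher in the red nucleus by 0.45 ± 0.16 (SE; limma adjusted p 2.24e-05 and 0.0323). Slc12a2 was higher in hypoglossal neurons by 0.45 ± 0.14 and lower in the red nucleus by −0.52 ± 0.14 (SE; limma adjusted p 0.0203 and 0.00463).

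The last group makes and handles the transmitters: Gad1 and Gad2 make GABA, Slc32a1 loads GABA and glycine into vesicles, Slc6a5 is the glycine transporter of glycinergic neurons and Slc6a9 is a glycine transporter mostly of glia. Levels were uneven between mice. Gad1 was highest in the vagus, at 21.3 ± 14.4 RPKM (SD, n = 11), and lowest in facial neurons, at 1.93 ± 4.52 (SD, n = 13), where 4 of 13 samples were at 0, log2 differences of 2.32 ± 0.39 and −1.82 ± 0.36 (SE; limma adjusted p 1.70e-06 and 0.000156). Gad2 was also highest in the vagus, at 10.49 ± 7.59 RPKM (SD, n = 11), by 1.599 ± 0.278 (SE; limma adjusted p = 3.99e-06), and was 1.05 ± 0.27 higher in ocular neurons (limma adjusted p = 0.00246). Slc32a1 was at 6.53 ± 4.40 RPKM in the vagus (SD, n = 11) and 0.587 ± 0.759 in the red nucleus (SD, n = 11), log2 differences of 1.31 ± 0.35 and −1.28 ± 0.35 (SE; limma adjusted p 0.00237 and 0.00401). Slc6a9 had means of 0.0907 to 1.22 RPKM and passed no test. Slc6a5 was 1.15 ± 0.24 higher in lumbar and 0.90 ± 0.25 higher in hypoglossal neurons and −1.09 ± 0.26 in the red nucleus (SE; limma adjusted p 0.000231, 0.00941 and 0.000915). The 7 interneuron transcription factor genes tested as markers (Pax2, Lhx1, Lhx5, En1, Gata3, Tfap2b, Tal1) summed in the vagus to 6.546 to 38.97 RPKM on day 2 and 4.543 to 11.63 on day 10 in controls, with Lhx5, En1 and Tal1 at 0 on day 2 and Lhx1 and Tal1 at 0 on day 10. In facial neurons the sum was 0.04178 to 5.815 RPKM over all control samples, with Lhx5 at 0. In ocular and red nucleus neurons, some of which are known to express En1 or Lhx1 themselves, the sum was 12.95 to 55.86 RPKM. The vagus also had the lowest sum of cholinergic markers among the motor populations, and the part of other cells in these levels was not tested. None of the 5 genes passed the test between day 2 and day 10 in controls, with log2 changes from −2.13 to 1.32 for Gad1, Gad2 and Slc32a1. Slc32a1 in control lumbar neurons was lowest on day 5, at 0.171, 0.512, 0.730, 0.817 and 0.859 RPKM, below every mouse of day 2 (3.62, 4.03, 5.35 and 16.3) and of day 10 (1.30, 1.85, 6.23 and 28.0). The log2 change was −2.15 ± 0.52 from day 2 to day 5 and 1.93 ± 0.52 from day 5 to day 10 (SE; limma adjusted p 0.0285 and 0.0151). The first call was lost without mouse 20, 28, 34, 71, 75, 240 or 244 (−2.36 to −1.73, 0.0505 to 0.104) and without mice 240 and 244 together (−2.71, 0.0857), and the other without mouse 253 (1.18, 0.126). The sum of the 7 interneuron genes there was 1.232 to 8.942 RPKM on day 2, 0.2492 to 3.225 on day 5 and 1.672 to 5.203 on day 10, and its part was not tested. These lumbar control libraries of day 5 were the ones joined with reads of an earlier deposit, so age and that joining cannot be told apart here. Exons of Slc32a1 overlap those of Gm14205, and exons of Slc6a9 those of Ccdc24, on the opposite strand, so reads of these pairs cannot be told apart either.

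Of the 75 calls between populations, 60 were kept under every alternative setting tried and 15 were lost under at least 1. Calls lost without a single mouse were those of Glrb in ocular neurons (mice 26, 29, 30, 75, 240, 253 or 254; 0.25 to 0.30 against 0.29), Slc32a1 in facial neurons (mice 26, 28, 29, 34, 75, 240, 244, 252, 253 or 254; −0.99 to −0.84 against −0.98), Nlgn2 (mice 26, 71 or 252; −0.26 to −0.21 against −0.27) and Slc12a2 (mice 29, 252 or 254; −0.40 to −0.35 against −0.41) in the vagus. In hypoglossal neurons they were Gad2 (mice 26, 29, 34, 71, 75, 240, 244, 252, 253 or 254; 0.68 to 0.83 against 0.80), Slc6a5 (mouse 252; 0.76) and Slc12a2 (mice 26, 34, 240, 252 or 254; 0.39 to 0.43). Gad2 in lumbar neurons was lost without mouse 30, 71, 240, 247, 252 or 254 (−0.76 to −0.65 against −0.78). In the red nucleus they were Gabra5 (mice 14, 34, 71, 244, 253 or 254; 0.35 to 0.44 against 0.45), Glrb (mice 26, 28, 29, 30, 71, 75, 252, 253 or 254; −0.29 to −0.19 against −0.28) and Slc12a5 (mice 30, 71, 75, 244, 247 or 252; 0.37 to 0.45). Leaving out mice 240 and 244 lost 12 calls, 9 of these 11 among them and also Slc32a1 (0.72 against 1.31) and Gabrq (0.78 against 0.83) in the vagus and Gabra4 in lumbar neurons (0.53 against 0.63).

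Beyond the 27 members, 39 other genes of the pathway were listed, of which 37 were in the table and the other 2 were not analysed here. Gabarapl1, a ubiquitin-like protein of receptor trafficking and autophagy, rose in control neurons of all 6 populations from day 2 to day 10. In lumbar neurons it was at 208 ± 23.0 RPKM on day 2 (SD, n = 4) and 349 ± 13.3 on day 10 (SD, n = 4), and its log2 rises ran from 0.75 ± 0.13 in lumbar to 1.16 ± 0.19 in vagus neurons (SE; limma adjusted p from 9.69e-05 to 0.00326). Calls in either direction numbered 3 of 28 genes tested in ocular, 1 of 28 in facial, 1 of 29 in vagus, 2 of 27 in hypoglossal, 4 of 27 in lumbar and 5 of 27 in red nucleus neurons, where 8.02%, 5.36%, 1.02%, 5.11%, 12% and 11.1% of all genes were called, so most of these counts lie near the share of all genes. Among receptor trafficking genes Shisa7, which binds GABA-A receptors, fell by 1.15 ± 0.27 in lumbar neurons (SE; limma adjusted p = 0.00412). Abat, the GABA transaminase that breaks GABA down, rose by 1.27 ± 0.22 in the red nucleus and 0.85 ± 0.23 in ocular neurons (SE; limma adjusted p 0.000561 and 0.0204), and its change differed between populations (limma F test, adjusted p = 0.00404), beside 3.57% of all genes. Among members, 3 of 26 passed the same F test: Glra2, Glra3 and Gabra6, the last with the limit on its filter given above. Between populations, Kctd8, an auxiliary subunit of GABA-B receptors, was 1.75 ± 0.16 higher in hypoglossal neurons and −2.05 ± 0.16 in the vagus (SE; limma adjusted p 7.51e-14 and 1.70e-16), at 29.1 ± 9.65 RPKM (SD, n = 12) and 2.68 ± 2.10 RPKM (SD, n = 11). Mdga1, which binds neuroligins, was 2.54 ± 0.18 higher in the red nucleus, and Stk39 (SPAK), a kinase that regulates the chloride transporters, was at −1.45 ± 0.09 in the vagus (SE; limma adjusted p 2.16e-18 and 9.13e-22). The subunit genes Gabrr1, Gabrr2, Gabrr3, Gabre and Gabrp had means of at most 1.34 RPKM in any control population.

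The same change with age was then taken in SMA mice, a comparison added after the values were seen. Glra1 rose in 4 populations, Glra2 fell in 5 and Gphn fell in 4. Calls numbered 27 of 144, 9 higher and 18 lower on day 10, over 15 members: 3 of 23 in ocular (6.66% of all genes called), 4 of 25 in facial (6.73%), 3 of 24 in vagus (3.31%), 8 of 24 in hypoglossal (4.31%), 9 of 24 in lumbar (18.4%) and 0 of 24 in red nucleus neurons (5.06%). In the red nucleus 8 members had an unadjusted limma p under 0.05, beside 2919 of all 16134 genes tested. Glra1 rose by 1.58 ± 0.37 in ocular, 1.46 ± 0.30 in hypoglossal, 1.38 ± 0.34 in facial and 0.76 ± 0.17 in lumbar neurons (SE; limma adjusted p 0.00721, 0.00431, 0.0111 and 0.00194). In SMA lumbar neurons it was at 48.9 to 94.7 RPKM on day 2 (median 65.2, 7 mice) and at 97.8, 100.2, 104.6, 110.4 and 145 on day 10, with no overlap. Glra2 in the same neurons was at 45.1 to 75.1 RPKM on day 2 (median 56.0) and at 11.1, 11.7, 14.8, 15.4 and 28.0 on day 10, and its log2 changes were −1.87 ± 0.19 in lumbar, −1.55 ± 0.21 in hypoglossal, −1.43 ± 0.43 in ocular, −1.03 ± 0.28 in facial and −0.94 ± 0.26 in vagus neurons (SE; limma adjusted p 3.80e-08, 4.31e-05, 0.0430, 0.0263 and 0.0398). Gphn in lumbar neurons went from 60.3 to 83.6 RPKM (median 68.7, 7 mice) to 35.6, 38.6, 45.1, 48.7 and 50.3, a change of −0.69 ± 0.12 (SE; limma adjusted p = 7.49e-05), and changed by −0.98 ± 0.27 in vagus, −0.67 ± 0.17 in hypoglossal and −0.60 ± 0.18 in facial neurons (limma adjusted p 0.0458, 0.0234 and 0.0382).

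Markers of other cells moved with age in SMA mice too. The median sum of the same 5 oligodendrocyte markers went from 28.91 RPKM on day 2 to 603.2 on day 10 in lumbar, from 35.89 to 402.8 in ocular, from 32.44 to 211 in facial, from 56.77 to 245.3 in hypoglossal, from 25.89 to 356.4 in red nucleus and from 54.91 to 71.82 in vagus neurons, with Mog at 0 in the vagus on day 2. The sum of 6 astrocyte markers (Aldh1l1, Aqp4, Gfap, Gja1, Slc1a2, Slc1a3) was 24.98 to 71.27 RPKM in SMA lumbar neurons on day 2 and 51.3 to 93.25 on day 10. Their part in the SMA changes was not tested.

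In SMA hypoglossal neurons 4 of the 5 transmitter genes rose. Gad1 was at 0, 0.685, 1.11, 6.23, 8.84 and 8.94 RPKM on day 2 and at 9.75, 14.5, 21.0, 32.1 and 46.6 on day 10, and Slc6a5 at 0.174, 0.363, 0.541, 2.26, 2.84 and 4.50 and then 6.34, 7.21, 9.79, 17.3 and 18.8. The days did not overlap for either gene. The log2 rises were 2.61 ± 0.61 for Gad1, 2.51 ± 0.48 for Gad2, 2.38 ± 0.67 for Slc32a1 and 2.33 ± 0.55 for Slc6a5 (SE; limma adjusted p 0.0109, 0.001996, 0.0391 and 0.0130). The sum of the 7 interneuron genes moved with them, from 0.2749 to 7.354 RPKM (median 1.883) on day 2 to 4.735 to 15.4 RPKM (median 9.596) on day 10, with Tfap2b at 0 on day 10, and its part in these rises was not tested. Gad1 in control hypoglossal neurons was at 1.65, 6.94, 7.49 and 11.4 RPKM on day 2 and 0.787, 12.8, 15.4 and 15.9 on day 10, overlapping groups.

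Other SMA calls were mostly falls of GABA-A subunits, beside a rise of Glrb and a fall of Glra3. In lumbar neurons Gabra4 changed by −2.06 ± 0.25, Gabrq by −1.25 ± 0.36, Gabrg3 by −1.03 ± 0.32, Gabra5 by −0.63 ± 0.16 and Gabrb1 by −0.43 ± 0.14, while Glrb rose by 0.44 ± 0.12 (SE; limma adjusted p 7.50e-07 to 0.0341). Gabra5 changed by −1.63 ± 0.33 in the vagus, from 21.0 to 30.7 RPKM (median 27.4, 6 mice) to 3.11, 8.37, 8.43, 9.85 and 11.5, Gabrq by −1.71 ± 0.39 in facial neurons, Glra3 by −1.43 ± 0.38 in hypoglossal neurons and Gabra3 by −1.13 ± 0.32 in ocular neurons (SE; limma adjusted p 0.00697, 0.00704, 0.0300 and 0.0305). Of the 27 SMA calls 11 were lost without some single mouse. In ocular neurons these were Gabra3 (mice 16, 38, 199, 207, 249 or 258; −1.11 to −1.01) and Glra2 (mice 16, 30, 38, 71, 196, 206, 207, 249, 252, 253, 254 or 258; −1.50 to −1.06), and in facial neurons Gphn (mice 18, 196, 199, 206, 207, 209 or 249; −0.62 to −0.46) and Glra2 (mice 199, 249 or 258; −1.07 to −0.91). In the vagus they were Gphn (16 mice, among them 18, 196, 249 and 258; −1.02 to −0.68) and Glra2 (mice 16, 18, 196, 206, 207, 209, 211, 249, 250 or 258; −0.97 to −0.85). In hypoglossal neurons they were Gphn (mice 16, 18, 196, 249 or 258; −0.64 to −0.61), Slc32a1 (mice 16, 18, 196, 199, 209, 250 or 258; 2.09 to 2.46) and Glra3 (mice 16, 18, 199, 207, 249 or 258; −1.46 to −1.23), and in lumbar neurons Gabrg3 (mice 249 or 250; −0.94 to −0.92) and Gabrb1 (mice 41, 55, 199, 207, 249, 250 or 258; −0.44 to −0.38). Without control mice 240 and 244, which share the spread of the fit, the vagus Gphn (−0.98, limma adjusted p 0.0595) and hypoglossal Slc32a1 calls (2.38, 0.0538) were lost.

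Whether the change with age itself differed between genotypes was tested directly. No member passed in 144 limma tests, of which 16 had an unadjusted p under 0.05. Over all genes, those under that unadjusted level ranged from 970 of 16703 (vagus) to 1378 of 16382 (lumbar). Over all genes the share called was 0.126% in ocular and 0.122% in facial neurons and 0.0% in each of the other 4 populations. The lowest adjusted p among members belonged to Gabrq in facial neurons, whose change in SMA less that in controls was −1.86 ± 0.57 on the log2 scale (SE; limma adjusted p = 0.419). For Glra1 the same difference ran from −1.19 to −0.13 over the 6 populations and for Glra2 from −1.01 to 0.87 (limma adjusted p of 0.689 or more).

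SMA neurons were compared with control neurons of the same population and day in 18 comparisons. No member passed in any of 432 limma tests, 47 of which had an unadjusted p under 0.05, and 0 passed under each of the alternative settings as well. Over all genes, those with an unadjusted limma p under 0.05 ranged from 498 of 16134 (red nucleus, day 5) to 1787 of 15890 (ocular, day 2). Few genes passed in the table as a whole. The share of all genes called on days 2, 5 and 10 was 0.132%, 0.0252% and 0.359% in ocular, 0.0232%, 0.0695% and 0.666% in facial, and 0.00599% on each day in vagus neurons. It was 0.0364%, 0.00607% and 0.0728% in hypoglossal, 0.0122%, 0.0488% and 0.775% in lumbar, and 0.0434%, 0.0062% and 0.0124% in red nucleus neurons. Differences of Glra1 ran from −0.50 to 1.04, of Glra2 from −0.63 to 1.01, of Glrb from −0.72 to 0.30, of Slc12a5 from −0.65 to 0.30 and of Slc12a2 from −0.41 to 0.83 on the log2 scale over the 18 comparisons.

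The lowest adjusted p belonged to Gabrq in facial neurons on day 10. It was at 3.94, 4.58, 4.98 and 13.2 RPKM in control mice and at 0.338, 1.04, 1.58 and 2.36 in SMA mice, with no overlap. The log2 difference was −1.66 ± 0.44 (SE; limma adjusted p = 0.0936, and 0.0552 to 0.314 over the alternatives). Facial neurons on day 10 were also the group where most members leaned one way: 22 of 25 tested had a negative difference, with a median of −0.37, where the median of all genes was 0.01. Only 2 of those 25 had an unadjusted limma p under 0.05, beside 1350 of all 17270 genes tested. The astrocyte markers summed to 30.59 to 43.25 RPKM in these control samples and 46.84 to 83.26 RPKM in the SMA ones, and their part in the difference was not tested. On days 2 and 5 the member medians in facial neurons were 0.04 and 0.21. Gphn in hypoglossal neurons on day 2 was at 32.0, 33.9, 36.4 and 38.3 RPKM in controls and at 46.6 to 69.2 RPKM (median 58.3, 6 mice) in SMA mice, with no overlap, a difference of 0.70 ± 0.18 (SE; limma adjusted p = 0.172, and 0.124 to 0.387 over the alternatives). Gad2 in the red nucleus on day 2 was at 0, 0.118, 0.357 and 0.779 RPKM in controls and at 3.62, 4.31, 5.12 and 24.2 in SMA mice, again apart, a difference of 2.61 ± 0.67 (SE; limma adjusted p = 0.221, and 0.132 to 0.377 over the alternatives). On day 5 the widest difference over all 18 comparisons below 0 was that of Gad1 in ocular neurons, at −2.50 ± 0.97 (SE; limma adjusted p = 0.609). In the red nucleus on day 2 the sum of the 7 interneuron genes was 12.95 to 30.05 RPKM in controls and 24.93 to 88.12 in SMA mice, with Pax2 at 0 in both, and its part was not tested.

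**Figure D5:**
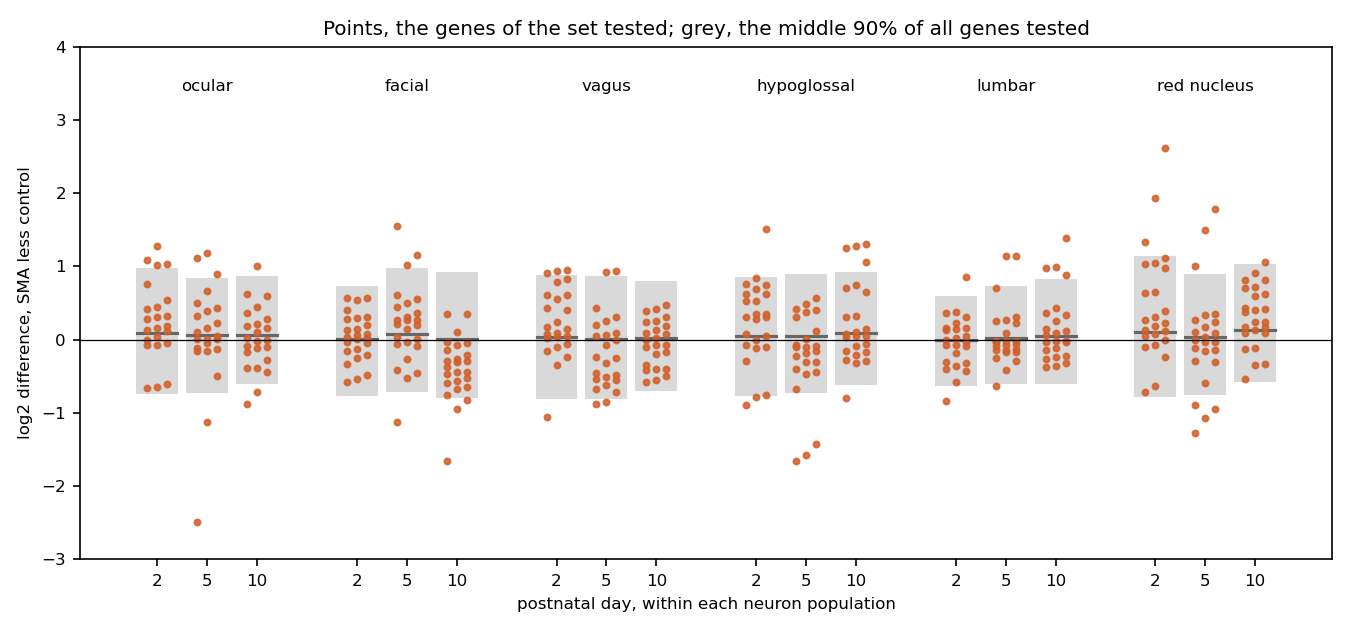
Log2 difference of each member between SMA and control mice in the 18 comparisons of population and day; points are members, the dark line is the median of all genes tested and the grey band spans the middle 90% of all genes tested. Most points lie inside the band, and facial neurons on day 10 have 22 of 25 points below 0, with Gabrq the lowest of them at −1.66.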

How the data were processed

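RNA was measured by RNA-seq of laser-captured neurons, and the authors deposited 1 table of RPKM values per gene and library. Reads were mapped with STAR 2.4.1c, and the builds named are mm10 and hg19, per the submitters' processing notes. The counting tool, annotation and strand setting are not given in the sources used here. Per the labels, 5 lumbar control libraries of day 5 were joined at mapping with reads of an earlier deposit.

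Samples were grouped by population, genotype and day from the labels. Libraries of 1 mouse from 1 population were averaged (8 mouse samples), since the mouse is the replicate. Genes at 1 RPKM or more in at least as many samples as the smallest group were kept. Tests used limma 3.58.1 in R 4.3.3 on log2(RPKM + 1), a scale that understates the change of low genes, with p-values adjusted over all genes tested. Maturation and genotype were fitted within a population over its 6 groups, and population contrasts over all control samples. Ratios were tested by exact permutation in Python 3.11.15. Deposited RPKM values gave back whole reads, within 0.02 reads, for a median of 75.19% of low values, so no count test was run, and depth was estimated from 17340 genes with 1 transcript. The code was tested on simulated data.

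All 27 members are named, and other pathway genes are named where they passed the threshold with the largest changes of their list or as a group near 0. Members and lists were chosen with earlier results of these data known, and the comparisons of single age steps or in SMA mice alone were added after the values were seen. One oligodendrocyte marker is not reported here and is left out of the marker sum. Mouse numbers mark the same animal across populations. Deviations of a mouse from its group means correlated by −0.0413 to 0.145 between its populations (median 0.0296, 150 pairs) and by a median of −0.00708 between different mice (568 pairs). Alternatives comprised 8 settings and the omission of each of 34 mice.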

Additional observations from a re-analysis of the deposited data

Results flagged for a closer look

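Among 80 groups of 4 or 5 control mice examined for Glra1, Glra2, Glrb, Slc12a5 and Slc12a2, 13 held a mouse far from the others. The nominal rate is about 1 in 20, but the same mice recur across genes and populations, so no excess is read from the count. In each of the 13 the distant mouse was the highest. Glra1 was at 87.0 RPKM in facial neurons of mouse 253 on day 10 (others 49.0 to 52.2), 79.7 RPKM in lumbar neurons of mouse 75 on day 5 (others 61.5 to 65.7), 9.66 RPKM in ocular neurons of mouse 247 on day 10 (others 2.79 to 3.07), 5.49 RPKM in the red nucleus of mouse 28 on day 2 (others 0 to 0.446) and 13.2 RPKM in the vagus of mouse 29 on day 5 (others 7.62 to 8.22). Glra2 was at 8.57 RPKM in ocular neurons of mouse 26 on day 2 (others 4.63 to 5.19), and Glrb at 186 RPKM in facial neurons of mouse 247 on day 10 (others 127 to 136). Slc12a5 was at 142 RPKM in facial neurons of mouse 253 on day 10 (others 62.8 to 75.1), 170 RPKM in lumbar neurons of mouse 29 on day 5 (others 74.8 to 82.2), 116 RPKM in ocular neurons of mouse 30 on day 5 (others 69.1 to 76.6), 146 RPKM in the red nucleus of mouse 244 on day 2 (others 69.7 to 80.8) and 86.5 RPKM in the vagus of mouse 34 on day 5 (others 27.02 to 31.52). Slc12a2 was at 8.95 RPKM in hypoglossal neurons of mouse 34 on day 5 (others 6.92 to 7.20).

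The change from day 2 to day 10 in controls differed between the 6 populations for 3 members by a limma F test: Gabra6 (adjusted p = 1.78e-06, which its selection fixes, since it passed the filter on low values only through facial samples), Glra3 (adjusted p = 0.000911) and Glra2 (adjusted p = 0.00472).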

How the results depend on the processing

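No call on a single member changed direction under any setting. Of the calls on age in controls 8 of 22 were kept under all settings and omissions, of those between populations 60 of 75, of those on age in SMA mice 14 of 27, and of those on single age steps 0 of 2 (day 2 to 5) and 4 of 14 (day 5 to 10). Without day 2 control mice 240 and 244, an omission chosen after seeing the data, the members called in controls numbered 1 in ocular (3 with them), 1 in facial (4), 0 in vagus (1) and 2 in hypoglossal neurons (5), and in SMA red nucleus neurons 1 (0). With only the 2 compared groups in the fit they were 0 in vagus, 2 in hypoglossal and 1 in red nucleus neurons (4). Without a filter on low values the red nucleus had 2, and SMA vagus neurons had 1 (3), as they did after quantile normalization. Causes of these shifts were not tested.

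Leaving out each mouse in turn gave 1 to 3 calls on age in control ocular, 3 to 4 in facial, 0 to 1 in vagus, 3 to 5 in hypoglossal, 4 to 6 in lumbar and 2 to 5 in red nucleus neurons. In SMA mice it gave 1 to 4, 2 to 7, 1 to 3, 5 to 8, 7 to 10 and 0 to 2 in the same order. Between populations it gave 12 to 14, 10 to 13, 13 to 16, 6 to 10, 11 to 14 and 13 to 16. Members whose change with age differed between populations numbered 3 to 4, genotype calls 0, and calls on the difference of the change between genotypes 0 to 1 (1 without mouse 38).

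The log2 change of the Slc12a5 to Slc12a2 ratio turned sign between days 5 and 10 in ocular (0.17), vagus (0.32) and lumbar neurons (−0.0113), without mice 240 and 244 in hypoglossal neurons (0.11), and without single mice in facial (−0.0842 to 0.4428; negative without mouse 28 or 253) and red nucleus neurons (−0.33 to 0.33; negative without mouse 252).

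The mouse number was also fitted as a replicate block over control populations, with 1 shared correlation between samples of a mouse, estimated at 0.0339. Calls between populations then numbered 13, 12, 14, 10, 13 and 16, and 3 members differed in their change with age. The shallowest sample, the red nucleus of mouse 252 on day 10, limits what its low values can show.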
